A study of Mus musculus with 4 samples.

Results

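The Prame-like family of the mouse was followed in RNA from embryonic stem (ES) cells with and without the histone acetyltransferase KAT6A. Its members were the rows of the count tables whose gene symbol starts with Pramef or Pramel, and there were 13 of them among 41543 symbols. Of these, 12 are protein-coding genes and 1, Pramef12os, is an antisense transcript of Pramef12. The cells were E14TG2a, a mouse ES cell line grown in serum with the cytokine LIF on gelatin. One group, called control, carried no stated edit. The other, called KO, had KAT6A knocked out by CRISPR/Cas9 editing, and the labels state neither the position of the edit nor the number of clones. Each group had 2 libraries of polyadenylated RNA. The labels do not say whether these came from separate cultures, so the spread behind each p-value is that of the libraries at hand and may be technical alone.

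PRAME, the founder of the family, was named as an antigen of human melanoma, and its relatives encode proteins built of leucine-rich repeats. The family has multiplied in rodents, where most genes are active in the germ line, the oocyte or the embryo before implantation. PRAME-type proteins can serve as the substrate-binding subunit of ubiquitin ligases built on the scaffold CUL2. PRAMEL7, found in the inner cell mass, recruits such a ligase to UHRF1, the cofactor of the maintenance DNA methyltransferase DNMT1, and together with PRAMEL6 it is linked to the undifferentiated state that LIF and STAT3 uphold.

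Libraries held 27494041 to 37354623 counts, and 16112 genes passed the expression filter. Over these genes the SD of the difference in log2 level was 0.17 between the control libraries and 0.35 between the KO libraries. Kat6a itself stood at 145 and 143 CPM (counts per 1000000 counts of the scaled library) in the controls, at 242 CPM in the first library labelled KO (called KO-labelled library 1) and at 86.4 CPM in the second (KO-labelled library 2). Its RNA therefore does not check the labels, and every direction below rests on them as they stand. All 10 ES cell markers examined passed the filter, with sums of 4954 and 5011 CPM in control cells and 5956 and 6659 CPM in the KO libraries, and 2 of them were called higher. Markers of primitive endoderm summed to 2462 and 2358 CPM in control cells and to 591 and 1007 CPM in the KO libraries, with 5 of 8 called lower and none at 0. Trophoblast markers summed to 163 and 167 CPM against 83.7 and 107 CPM, with 4 of 7 tested called lower, and germ cell markers to 137 and 131 CPM against 122 and 81.6 CPM, with 2 of 6 tested called lower. Over all tested genes, 5.76% were called higher and 8.57% lower. The part of these cell types in the results below was not tested. Fibroblast markers, which summed to 21.8 and 21.7 CPM against 30 and 25.3 CPM with Lum at 0, gave no call, and blood markers, at 7.88 to 8.89 CPM with Hbb-bt and Lyz2 at 0, gave none either.

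None of the 13 rows was silent, and 11 had at least 10 counts over the 4 libraries. The rows below that number were Pramel4 and Pramef20, with 3 counts each. The threshold fell between them and Pramel5, the row just inside it with 11 counts, and Pramef12os followed with 19. Members were thus chosen by their names and selected on counts summed over all libraries, and the family was proposed with results of these data known, so the counts of members are a description.

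As a whole the family was about as abundant in KO as in control cells, while its make-up differed. The members together held 5143 and 5198 counts in control cells, and 4527 and 3321 in KO-labelled libraries 1 and 2. In CPM of the scaled library this was 145 and 140 in control cells, and 149 and 121 in the KO libraries. One KO library lay above the controls and the other below them, and the KO mean was 0.946 times the control mean. By exact binomial (Clopper-Pearson) 95% intervals, which cover counting error only, the family share was 141 to 148 and 135 to 143 CPM of the unscaled total in the controls, 146 to 154 in KO-labelled library 1 and 117 to 125 in KO-labelled library 2. Pramef8 and Pramef12 made up 76.5% and 75.6% of the family's counts in control cells and 89.2% and 90.1% in the KO libraries. The neighbours Pramel6 and Pramel7 made up 19.6% and 20.1% in control cells, and 5.24% and 5.30% in the KO libraries. Without Pramef8 and Pramef12, a choice made after seeing the data, the remaining rows summed to 34.1 and 34.3 CPM in control cells. In the KO libraries they summed to 16.1 and 12.0 CPM, 0.411 times the control mean. Most of this difference lay in Pramel6 and Pramel7. The pair held 28.4 and 28.1 CPM in control cells, and 7.79 and 6.40 CPM in the KO libraries.

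**Figure D1:**
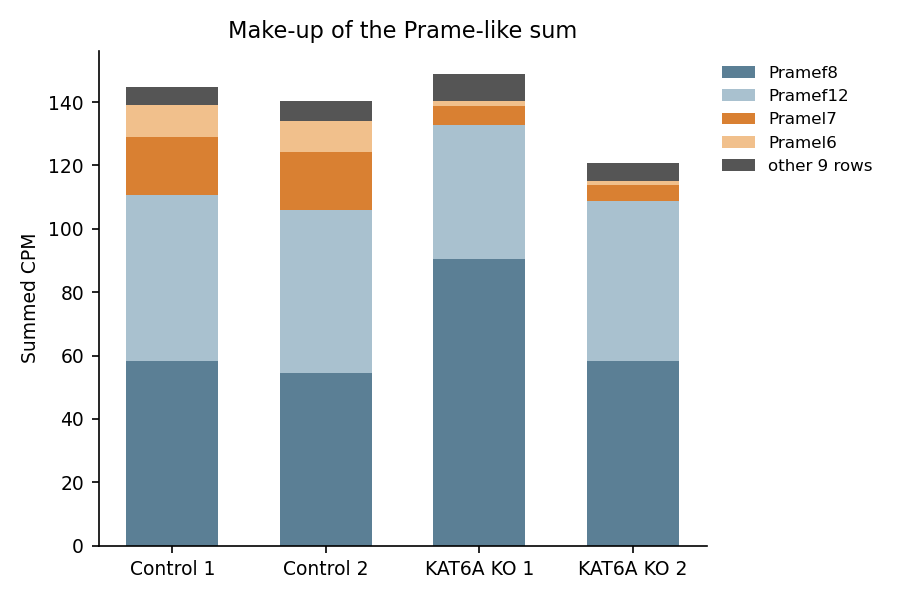
Summed CPM of the Prame-like rows in each of the 4 libraries, stacked by member. The total lies between 121 and 149 CPM in every library, while the layers of Pramel7 and Pramel6 shrink from 28.4 and 28.1 CPM together in the controls to 7.79 and 6.40 CPM in the KO libraries.

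Of the 9 members that passed the expression filter, 3 were lower and 1 was higher in KO cells once p-values of edgeR's quasi-likelihood fit were adjusted over all genes by Benjamini-Hochberg (threshold 0.05). Over all 16112 genes tested, 14.3% were called, 8.57% as lower and 5.76% as higher. The CPM of the groups did not overlap for 8 of the 9, as for 64.3% of all tested genes. For Pramef8, counted among the 8, control library 1 and KO-labelled library 2 both stood at 58.1 CPM. The members called lower were Pramel7, Pramel6 and Pramel3, and the one called higher was Pramef25. Without KO-labelled library 2 the log2 fold changes of Pramel1, Pramef8, Pramef6 and Pramef12 were 0.44, 0.68, 1.53 and -0.31. Without KO-labelled library 1 they were -0.29, 0.05, 0.92 and -0.04. The median log2 fold change of the 9 was -0.17, beside 0.01 over all tested genes. Pramef25 and Pramef6 reached the filter's bound of 0.304 CPM only in the KO libraries and Pramel3 only in the controls, so these could pass only by differing.

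**Figure D2:**
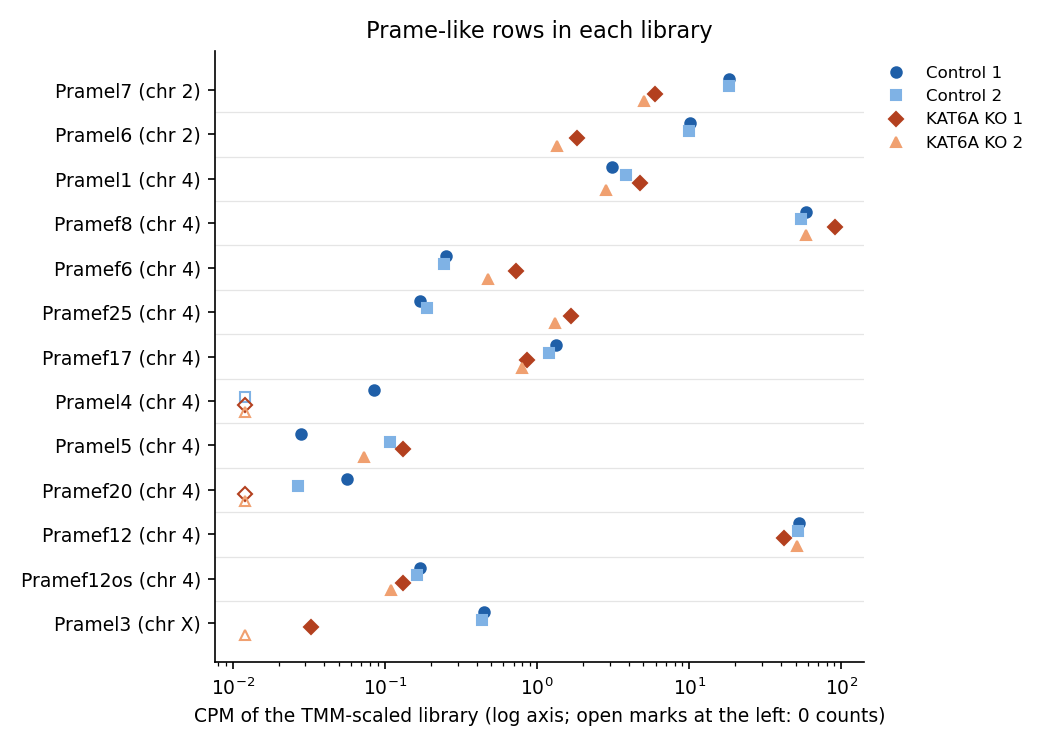
Level of each Prame-like row in each library, in CPM on a log axis, in genome order, with open marks for 0 counts. The KO marks of Pramel7, Pramel6 and Pramel3 lie left of the control marks, those of Pramef25 lie right of them, and Pramef8 and Pramef12 stay between 42.2 and 90.5 CPM throughout.

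Among the members tested, the pair on chromosome 2 had the lowest adjusted p-values. Pramel7 (87489087 to 87497093, minus strand) and Pramel6 (87506565 to 87510872, plus strand, GRCm38 with GENCODE M21) are divergent neighbours 9.47 kb apart. Pramel7 had 651 and 673 counts in control cells, 181 in KO-labelled library 1 and 139 in KO-labelled library 2. Pramel6 had 359 and 369 counts in control cells, and 56 and 37 in those KO libraries. For each gene the control libraries nearly coincided, and the KO libraries lay far below them and close to each other.

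The mean level of Pramel7 was 18.2 ± 0.105 CPM in control and 5.50 ± 0.630 CPM in KO cells (SD, n = 2), a 3.31-fold drop. Its log2 fold change was -1.73 (SE 0.15, adjusted p by edgeR = 0.00555). That of Pramel6 was 10.03 ± 0.0986 CPM in control and 1.59 ± 0.349 CPM in KO cells (SD, n = 2), a 6.26-fold drop, with a log2 fold change of -2.65 (SE 0.21, adjusted p by edgeR = 0.00498). Relative to the control mean, Pramel6 stood at 0.183 and 0.134 in the KO libraries and Pramel7 at 0.326 and 0.277, so Pramel6 was the lower of the pair in each. Pramel6 had 0.552 and 0.548 counts per count of Pramel7 in control cells, and 0.309 and 0.266 in the KO libraries, a shift described here without a test. No gene other than these within 500 kb of the pair passed the expression filter, and the median log2 fold change over the 1241 tested genes of chromosome 2 was 0.05. The log2 fold changes with a GC-content offset were -1.58 for Pramel7 and -2.55 for Pramel6. With a library left out they lay between -1.85 and -1.62 for Pramel7, and between -2.895 and -2.448 for Pramel6. In bulk RNA, fewer expressing cells and less RNA per cell cannot be told apart.

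**Figure D3:**
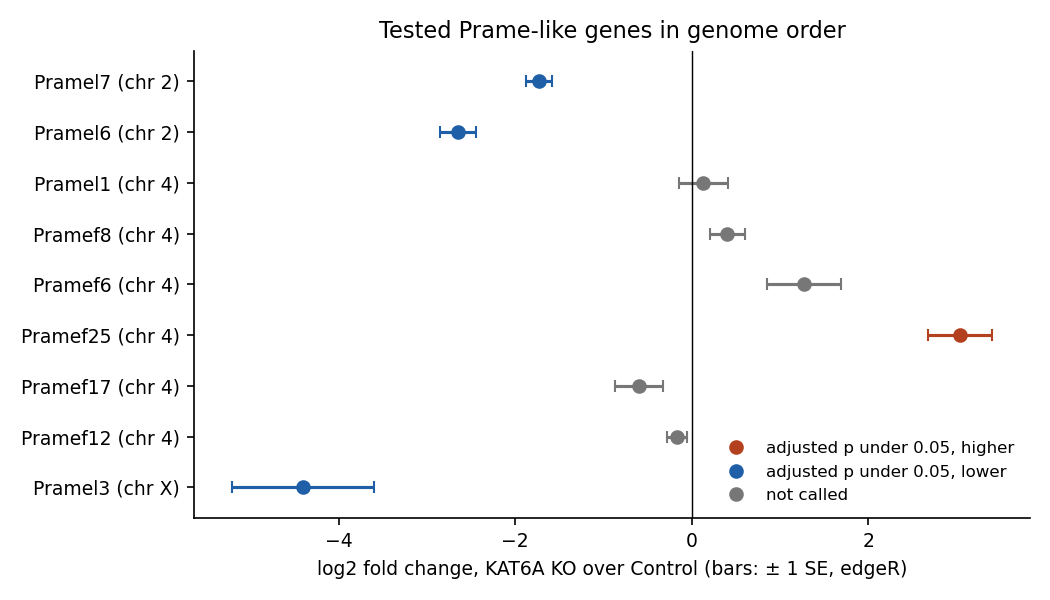
Log2 fold change, KO over control, of the 9 tested Prame-like genes in genome order, with bars of 1 SE either side from edgeR. The chromosome 2 pair and Pramel3 on the X chromosome lie left of 0, from -4.40 to -1.73, and on chromosome 4 Pramef25 alone passes the test, at 3.04.

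By its title, the study asks how KAT6A comes to CpG islands that lack DNA methylation, so the sequence before each gene's start was read for CG dinucleotides. RefSeq (GRCm38.p6) gave a promoter for 11 of the 13 rows, all except Pramef8 and Pramef12os. The 250 bases before the start are shown for the 4 genes called in the test and, for contrast, for Pramel1, the member with the most CG. They are written 5′ to 3′ on the gene's strand, with every CG in capitals. The windows are chr2:87492419-87492668 (minus strand) for Pramel7, chr2:87506315-87506564 (plus) for Pramel6, chr4:143951017-143951266 (minus) for Pramef25, chrX:135302066-135302315 (plus) for Pramel3 and chr4:143394191-143394440 (plus) for Pramel1. RefSeq's start of Pramel7 differs from that of its longest GENCODE model, which begins further upstream. The Pramel7 window therefore lies inside the gene's GENCODE span.
Pramel7: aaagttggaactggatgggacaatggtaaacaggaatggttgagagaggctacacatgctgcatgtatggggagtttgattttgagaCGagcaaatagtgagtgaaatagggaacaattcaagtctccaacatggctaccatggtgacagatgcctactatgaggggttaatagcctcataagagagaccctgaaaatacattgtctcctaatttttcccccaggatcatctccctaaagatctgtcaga
Pramel6: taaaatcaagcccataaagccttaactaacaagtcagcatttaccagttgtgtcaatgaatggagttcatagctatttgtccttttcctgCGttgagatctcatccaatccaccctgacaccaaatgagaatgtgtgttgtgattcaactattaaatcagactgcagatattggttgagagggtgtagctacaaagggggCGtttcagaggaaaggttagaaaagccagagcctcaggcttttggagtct
Pramef25: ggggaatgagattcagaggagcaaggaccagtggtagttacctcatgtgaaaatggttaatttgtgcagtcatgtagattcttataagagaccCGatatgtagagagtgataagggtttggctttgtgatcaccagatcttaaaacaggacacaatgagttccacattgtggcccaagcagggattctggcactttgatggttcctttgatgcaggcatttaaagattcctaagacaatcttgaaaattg
Pramel3: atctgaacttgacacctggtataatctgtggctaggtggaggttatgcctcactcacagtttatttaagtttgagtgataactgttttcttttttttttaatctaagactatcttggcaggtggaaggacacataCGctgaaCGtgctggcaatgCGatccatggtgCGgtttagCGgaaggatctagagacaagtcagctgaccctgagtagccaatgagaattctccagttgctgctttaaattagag
Pramel1: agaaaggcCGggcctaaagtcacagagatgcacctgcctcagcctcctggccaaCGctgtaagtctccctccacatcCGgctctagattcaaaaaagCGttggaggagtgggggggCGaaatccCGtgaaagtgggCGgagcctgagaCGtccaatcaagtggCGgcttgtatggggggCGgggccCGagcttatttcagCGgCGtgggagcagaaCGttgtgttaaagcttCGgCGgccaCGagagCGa

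Most of these promoters were poor in CG. The windows of Pramel7 and Pramef25 held 1 CG each, that of Pramel6 held 2, and that of Pramel3 held 5. Pramef12 had 6 and Pramel1 had 18. Over the 11 promoters the median was 2 CG, beside 6 over all 32851 RefSeq promoters, and 9 of the 11 held 5 or fewer, as did 49.7% of all promoters. Their GC content ran from 41.6% to 59.6% with a median of 44.4%, beside 52.4% over all promoters. The member richest in CG, Pramel1, was not called, and neither was Pramef12. Of the called genes, Pramel7, Pramel6 and Pramef25 held 2 CG or fewer, as did Pramef6 and Pramef17, which were not called. Pramel3, also called, lay above the median of the 11 at 5 CG.

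**Figure D4:**
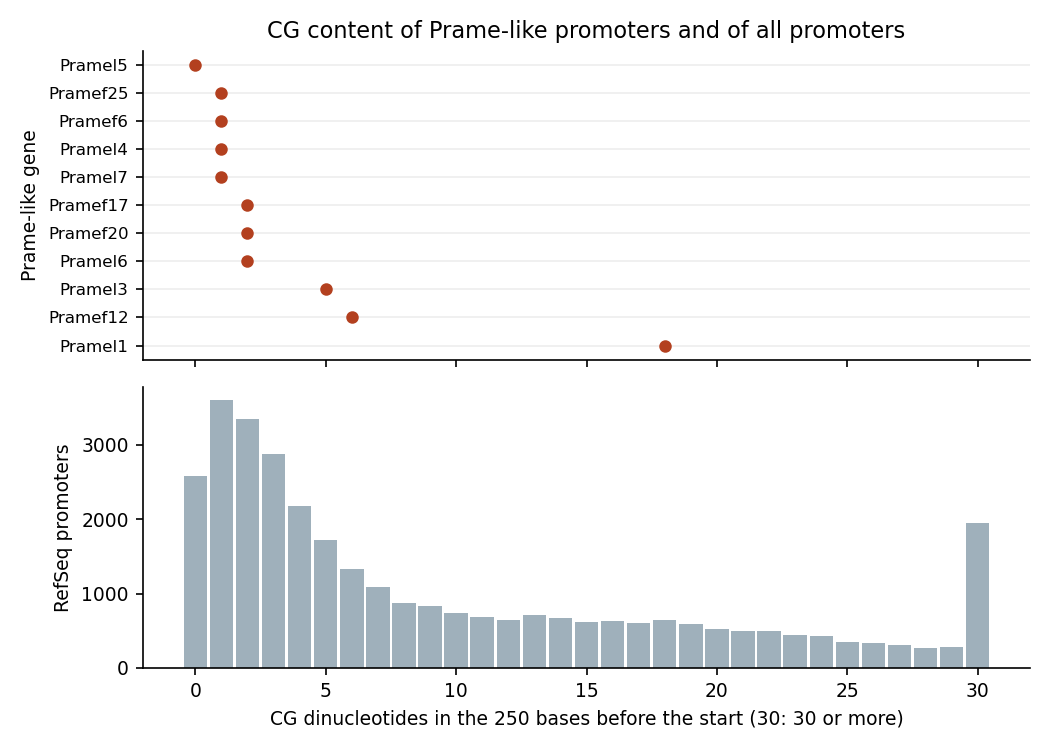
CG dinucleotides in the 250 bases before the start of 11 Prame-like genes (upper panel, 1 point a gene) and of all 32851 RefSeq promoters (lower panel, number of promoters at each count). The Prame-like genes lie between 0 and 6 CG, except Pramel1 at 18.

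A further 3 short motifs were also searched on both strands. TTCNNNGAA, the palindromic core bound by STAT factors, occurred in 7.02% of all promoter windows of this length. The palindromic motif of DUX, given by its name alone, occurred in 0.0304%, and TGCACAC, bound by ZSCAN4 proteins, in 3.67%. None was found in the 11 Prame-like windows, so no overlap between motifs arose there, which says only that these letters are not there. The RefSeq windows of Pramel7 and Pramef17 were alike although they lie on chromosomes 2 and 4, with 83.1% of 242 aligned bases identical. The median was 53.0% over the 55 pairs of Prame-like windows. Since the Pramel7 window lies inside the gene's GENCODE span, whether the likeness is one of promoters was not tested. The coding sequences of Pramel7 and Pramef17 were alike too, with 80.6% of 1422 aligned bases identical. Pramef17 had a log2 fold change of -0.60, beside -1.73 for Pramel7, and the difference was not tested.

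Apart from Pramel3, the other 10 rows lie in a cluster on chromosome 4, from 143394428 to 144408464, and none of its abundant members passed the test. Pramef12, known from the male germ line, was the most abundant row per length in the controls, at 20.2 CPM per kb of exon, followed by Pramef8 at 13.5, Pramel7 at 8.55, Pramel6 at 4.81 and Pramel1 at 1.24 CPM per kb. In KO cells Pramef12 and Pramef8 stood at 18.1 and 17.8 CPM per kb, Pramel7 at 2.58 and Pramel1 at 1.35. Pramef25 followed at 0.886 and stood above Pramel6 at 0.764 CPM per kb.

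Pramef12 had 1867 and 1912 counts in control cells, 1285 in KO-labelled library 1 and 1393 in KO-labelled library 2. In CPM this was 52.5 and 51.6 against 42.2 and 50.7, so the second KO library lay just under the controls. The log2 fold change was -0.17 (SE 0.11, adjusted p by edgeR = 0.349). Without KO-labelled library 2 it was -0.31. Pramef8 had 2066 and 2015 counts in control cells, and 2753 and 1598 in the KO libraries. In CPM it stood apart in 1 KO library, with 90.5 CPM in KO-labelled library 1, against 58.1 CPM in the other KO library and 58.1 and 54.4 CPM in control cells. The log2 fold change was 0.40 (SE 0.20, adjusted p by edgeR = 0.204). It was 0.05 without KO-labelled library 1, and 0.68 without KO-labelled library 2. Pramel1, a gene of the testis, had 110 and 142 counts in control cells, and 144 and 78 in the KO libraries, and its groups overlapped. Its log2 fold change was 0.13 (SE 0.28, adjusted p by edgeR = 0.773). It changed sign to -0.29 without KO-labelled library 1 and to -0.02 without control library 1, and was 0.44 without KO-labelled library 2. The KO libraries thus disagreed on Pramef8 and Pramel1, the neighbours at one end of the cluster.

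In the middle of the cluster, Pramef25 rose from a low level. This gene, RefSeq's Pramel16, is known from the 2-cell embryo and from ES cells that resemble it. It lies at 143948580 to 143951016 on the minus strand. It had 6 and 7 counts in control cells, 51 in KO-labelled library 1 and 36 in KO-labelled library 2. Its KO level was 9.37 and 7.32 times the control mean in these libraries, so the groups were far apart. The log2 fold change was 3.04 (SE 0.36), an 8.20-fold rise (adjusted p by edgeR = 0.00966). With a library left out it lay between 2.84 and 3.20. Pramef25 reached the filter's bound only in the KO libraries, so it could pass only by differing. It also shares much of its transcript sequence with other genes, as given below.

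The nearest members on either side of Pramef25, Pramef6 and Pramef17, did not pass the test. Between Pramef25 and Pramef17 lies Gm13101 (143964518 to 143966950), RefSeq's Pramel28, which was below the expression filter with 0 and 1 counts in control cells and 8 and 8 in the KO libraries. Pramef6, RefSeq's Pramel11, had 9 and 9 counts in control cells, and 22 and 13 in the KO libraries, a log2 fold change of 1.27 (SE 0.42, adjusted p by edgeR = 0.0902). Without KO-labelled library 2 the log2 fold change of Pramef6 was 1.53. Pramef17, RefSeq's Pramel14, had 47 and 44 counts in control cells, and 26 and 22 in the KO libraries. Its control libraries lay above its KO libraries, with a log2 fold change of -0.60 (SE 0.27, adjusted p by edgeR = 0.171).

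The remaining rows of the cluster were near the lower end of detection, and they did not pass the filter. Pramel5 had 1 and 4 counts in control cells, and 4 and 2 in the KO libraries, with overlapping groups. Pramel4 had 3 counts in control library 1 and none elsewhere, and Pramef20 had 2 and 1 counts in control cells and none in the KO libraries. A count of 0 allows up to 3 counts, or 0.0986 and 0.109 CPM in the KO libraries, so no difference was detectable for these genes at this depth. The antisense Pramef12os had 6 and 6 counts in control cells and 4 and 3 in the KO libraries. Its control level was 1.37 times the KO level with an exact 95% counting interval of 0.497 to 4.10. Pramef12os lies inside Pramef12 on the other strand, and no source used here gives the strand setting of the counting, so reads of these genes cannot be told apart with certainty.

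Pramel3 on the X chromosome (135302307 to 135312652, plus strand) had almost no counts in KO cells. It had 16 and 16 counts in control cells, 1 in KO-labelled library 1 and 0 in KO-labelled library 2. The control level was 25.5 times the KO level with an exact 95% counting interval of 4.27 to 1040. The fitted log2 fold change was -4.40 (SE 0.81, adjusted p by edgeR = 0.0213), and it depends on the prior count. It was -6.89 without KO-labelled library 1 and -3.61 without KO-labelled library 2. DESeq2 gave it no adjusted p. Within 500 kb of Pramel3, 9 other genes were tested, of which 3 were lower and none higher. Over all tested genes, 8.57% were called lower and 5.76% higher. The median log2 fold change of the 9 was -0.60, beside -0.17 over the 560 tested genes of the X chromosome.

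How far single members can be told apart by their reads differed between them. Over the longest GENCODE transcript of each row, the share of stretches of 50 bases that also occur in a transcript of another gene was 0% for Pramel6, Pramel1, Pramef8, Pramef12, Pramef12os and Pramef20, and 0.442% for Pramel7. It was 27.1% for Pramel5, 35.2% for Pramef6, 63.5% for Pramef25, 73.5% for Pramef17, 81.8% for Pramel3 and 92.8% for Pramel4. Neither read length nor the handling of reads that match several genes is known from the labels, so the separate counts of these genes are uncertain. The gene that shared most with Pramef25 was Gm13057, at 34.1% of its stretches, and that of Pramel3 was Gm15023, at 71.1%. Both were at 0 counts in all 4 libraries. The genes behind the other shared stretches of Pramef25 and Pramel3 are not listed here. Pramef6 shared most with Gm13083, at 31.4% of its stretches, which had 8 and 5 counts in control cells, and 39 and 19 in the KO libraries. Pramef17 shared all of its repeated stretches with Gm13128, which had 99 and 133 counts in control cells, and 79 and 63 in the KO libraries. The identity of coding sequences over the 66 pairs of the 12 coding members ran from 51.5% to 93.3%, with a median of 60.1%. The closest pair was Pramel4 with Pramel5. Pramel6 and Pramel7, which fell together, were 57.1% identical.

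Other members of the family are listed in the count tables under other names. By RefSeq's older names, together with Prame and Oog1 to Oog4, there were 27 such rows, of which 14 were at 0 in all libraries and 7 were tested. Of the 7 tested, 4 rose and none fell, with a median log2 fold change of 2.14. Over all tested genes, 5.76% were called higher and 8.57% lower. Gm13083 and B020004J07Rik reached the filter's bound only in the KO libraries and Prame only in the controls, so these 3 could pass only by differing, and the count and median are a description. The 4 were Gm12794, Gm13119, Gm13083 and Gm13078, all on chromosome 4, and the last pair was singled out after its values were seen, as were the rows that did not pass. Gm12794, RefSeq's Pramel19, had 58 and 60 counts in control cells, 269 in KO-labelled library 1 and 152 in KO-labelled library 2. Its log2 fold change was 2.14 (SE 0.27, adjusted p by edgeR = 0.0108). Gm13119, RefSeq's Pramel31, had 47 and 33 counts in control cells, and 196 and 105 in the KO libraries, with a log2 fold change of 2.22 (SE 0.34, adjusted p by edgeR = 0.0147). In both genes each KO library lay above the controls, and KO-labelled library 1 was the higher. The log2 fold changes of Gm13083 and Gm13078 were 2.45 and 2.67 (adjusted p by edgeR = 0.0279 for each). Without control library 1 they were 2.83 and 2.00, and without control library 2 they were 2.12 and 4.01.

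The other 3 tested rows did not pass. They were B020004J07Rik (log2 fold change 1.82), Gm13128 (-0.38) and Prame itself on the X chromosome. Prame had 12 and 15 counts in control cells, and 4 and 0 in the KO libraries, with a log2 fold change of -2.37 (SE 0.83, adjusted p by edgeR = 0.101). Without KO-labelled library 1 the log2 fold changes of Prame and B020004J07Rik were -6.65 and 0.68. Without KO-labelled library 2 they were -1.48 and 2.42. The value of -6.65 rests on a KO library with 0 counts of Prame. Summed over the rows that RefSeq lists as Pramel genes, these other names held 6.39 and 6.86 CPM in control cells, 22.7 CPM in KO-labelled library 1 and 14.3 CPM in KO-labelled library 2.

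Genes of the machinery around PRAMEL7 were read against the 5.76% called higher and 8.57% called lower over all tested genes. No such share is given for fits on 3 libraries, where the single library of a group takes its spread from the other pair. Counts of calls in those fits, here and below, are therefore a description only. Of 11 tested genes listed for CUL2 and related ligases, 1 rose and 1 fell, near that background, with a median log2 fold change of -0.09. Without KO-labelled library 1 these were 2 and 5, and without KO-labelled library 2 they were 2 and 3. Cul2, the scaffold, stood at 139 and 147 CPM in control cells, and at 142 and 111 CPM in the KO libraries, with overlapping groups. Its log2 fold change was -0.18 (adjusted p by edgeR = 0.373). It was -0.37 without KO-labelled library 1 and 0.07 with a GC-content offset. Elob, the adaptor elongin B, rose by 1.01 on the log2 scale, from 75.3 and 74.3 CPM to 137 and 165 CPM, and the receptor gene Appbp2 fell, with a log2 fold change of -0.81. Appbp2 lies on chromosome 11, where 536 of 1322 tested genes were lower, 9 were higher and the median log2 fold change was -0.46. The part of that shift in its change, and in that of Stat3 below, was not tested.

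Uhrf1, the gene of the protein that PRAMEL7 targets, did not pass the test. It stood at 268 and 290 CPM in control cells, at 318 CPM in KO-labelled library 1 and at 448 CPM in KO-labelled library 2. Its groups did not overlap, and the KO libraries differed more from each other than the controls did. The log2 fold change was 0.46 (SE 0.16, adjusted p by edgeR = 0.103). It was 0.68 without KO-labelled library 1 and 0.19 without KO-labelled library 2. DESeq2 called Uhrf1 higher, with an adjusted p of 0.0394. Of the 9 genes of DNA methylation upkeep, 1 rose and none fell, with a median of 0.09. There were 4 above and 1 below without KO-labelled library 1, and 5 and 3 without KO-labelled library 2. The one that rose was Tet1, which oxidises methylcytosine (log2 fold change 0.42), and its call ended without control library 1 or 2 (adjusted p by edgeR = 0.257 and 0.301), with log2 fold changes of 0.436 and 0.405.

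Of 11 tested genes of the LIF and STAT3 pathway, 2 rose and 2 fell, with a median of 0.02. Higher and lower calls numbered 1 and 0 without control library 1, 2 and 0 without control library 2, 3 and 5 without KO-labelled library 1, and 5 and 4 without KO-labelled library 2. Stat3, the transcription factor of the pathway, lies on chromosome 11 and fell from 376 and 377 CPM to 252 and 260 CPM, with a log2 fold change of -0.55 (adjusted p by edgeR = 0.0128). Lifr, a receptor subunit, fell with a log2 fold change of -0.34. Both calls ended without control library 1 (adjusted p by edgeR = 0.0675 and 0.379) or control library 2 (0.0758 and 0.387), and that of Lifr ended with a GC-content offset (0.100). The log2 fold changes without control libraries 1 and 2 were -0.56 and -0.55 for Stat3, and -0.34 and -0.34 for Lifr. Tfcp2l1, a pluripotency factor, and Pim3, a kinase, rose by log2 fold changes of 0.60 and 0.56. The call of Tfcp2l1 ended without control library 2 (log2 fold change 0.54, adjusted p by edgeR = 0.119). That of Pim3 ended without control library 1 (log2 fold change 0.47, adjusted p by edgeR = 0.192) and with a GC-content offset (0.111).

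Human PRAME can repress retinoic acid receptors, and of 11 tested genes of these receptors and their targets 1 rose and 1 fell, with a median of 0.35. Rxra, a receptor, rose by 0.51 on the log2 scale, and Stra6, a retinol transporter, fell with a log2 fold change of -1.83. The call of Rxra ended without control library 1 or 2 (log2 fold changes 0.46 and 0.56, adjusted p by edgeR = 0.280 and 0.145), while 5 genes of the list were called higher and 1 lower without KO-labelled library 1, and 7 and 2 without KO-labelled library 2. Genes known from 2-cell-like ES cells were higher beside Pramef25, with 18 of 24 called higher, none lower and a median of 1.55. Among them Usp17le went from 2.53 and 2.51 CPM to 9.04 and 8.19 CPM, and Tmem92, on chromosome 11, from 2.87 and 3.13 CPM to 9.66 and 5.86 CPM. The log2 fold change of Tmem92 was 1.37, and 0.96 and 1.68 without KO-labelled libraries 1 and 2. Leaving out 1 library gave 14 to 22 called higher, and 1 called lower without KO-labelled library 1. Of the 24, Duxf3, Gm2022 and Tdpoz4 reached the filter's bound only in the KO libraries, and the first pair of these is among the 18. The list was chosen with its rise in these data known, so its count and median are a description. Of 9 tested genes for other leucine-rich repeat proteins and oocyte factors, 2 rose and 2 fell, with a median of 0.02. Nlrp4f and Nlrp4c fell, with log2 fold changes of -0.88 and -1.78, and Ooep and Khdc3, of the oocyte's subcortical maternal complex, rose by 0.71 and 0.68. The call of Khdc3 ended without control library 1 (log2 fold change 0.52, adjusted p by edgeR = 0.285) and with a GC-content offset (0.0587), and without KO-labelled library 1 this list gave 3 calls in each direction, without KO-labelled library 2 it gave 2 higher and 3 lower.

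**Figure D5:**
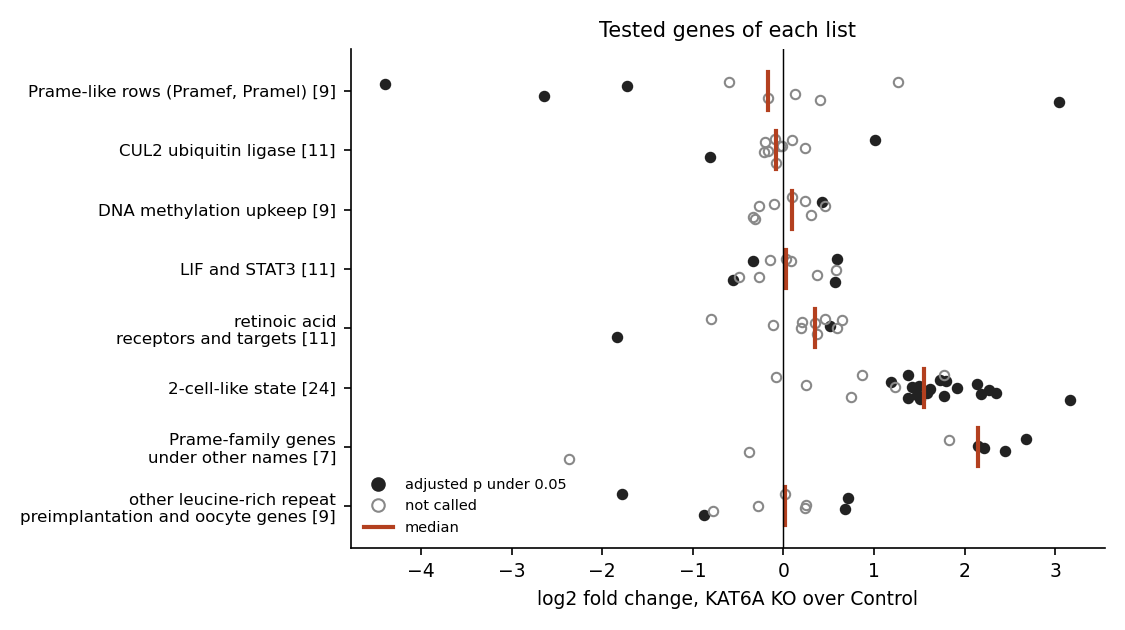
Log2 fold change, KO over control, of the tested genes of each list, with the number tested in brackets, filled marks at an adjusted p under 0.05 and the median as a vertical line. The Prame-like rows spread from -4.40 to 3.04 around a median of -0.17, and most tested genes of the 2-cell-like list lie right of 0, with 18 of 24 filled.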

How the data were processed

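Messenger RNA was measured in 4 libraries, 2 control and 2 KAT6A KO, grouped by their titles. Read counts for each symbol were deposited. The submitters' processing notes list featureCounts and DESeq2. The aligner, the build, the gene models and the strand of counting were not given in the sources used here. A table of normalized counts deposited by the authors, a signal per gene, equals the counts divided by 1 factor per library (1.11, 1.15, 0.945 and 0.848). In the deposited results table, which has no header, columns were identified from their values as a log2 fold change, a standard error and Wald statistic (each a score), a p-value and an adjusted p-value of the authors.

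The counts entered edgeR 4.0.16 under R 4.3.3 (filterByExpr by group, TMM factors 0.992 to 1.01, robust quasi-likelihood test on group, Benjamini-Hochberg over 16112 genes, threshold 0.05), and the procedure was tested on simulated data. CPM use the scaled library sizes, and SEs come from the fold change and F. Positions and transcripts are from GENCODE M21, where all 13 rows were found, and promoters and older names from RefSeq (GRCm38.p6). Pairwise alignments used Biopython 1.88. Alternatives were other scalings and filters, DESeq2 1.42.0, limma-voom (3.58.1), a replicate block, a GC-content offset (lowess span 0.3, GC known for 98.6% of tested genes) and fits on 3 libraries, where the single one of a group takes its spread from the other pair. Members with at least 10 summed counts are reported, and of each related list up to 2 called genes per direction with the largest mean CPM. Cul2 and Uhrf1 are always given. The members and lists were chosen with earlier results of these data known.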

Additional observations from a re-analysis of the deposited data

How the results depend on the processing

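Of 124 refits of the 9 tested members over 14 alternatives, 118 kept direction and side of the threshold. The direction of Pramel1 turned without control library 1 or KO-labelled library 1 (-0.02 and -0.29), and was 0.44 without KO-labelled library 2. DESeq2 gave no adjusted p for Pramel3 and Pramef6, so it called 2 members lower rather than 3. The count of members called higher was 1, from 1 to 4 with a library left out, and 5 with the genes that RefSeq lists under a Pramel symbol, chosen after seeing the data; the count called lower was 3, from 3 to 4 with a library left out. The family sum ratio of 0.946 lay between 0.848 and 1.04 with a library left out, was 0.701 without Pramef8 and 0.411 without Pramef8 and Pramef12, the latter chosen after seeing the data. Over all related lists 29 genes were called higher and 6 lower. With a library left out these were 21 to 48 and 4 to 17.

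Replicate numbers are shared by the groups, and deviations from the group means correlated at 0.0945 between same-numbered libraries. The labels do not say whether these libraries share a culture or batch, and this value cannot decide it. With the replicate block the members called stayed at 1 higher and 3 lower, and the lists gave 36 higher and 10 lower. With it Uhrf1, Prame and B020004J07Rik were called (adjusted p by edgeR = 0.00838, 0.0441 and 0.0152). Cul2 turned to 0.0702 under the offset for GC content, and to 0.0696 with the replicate block added. Counts summing to under 20 in a group limit Pramef25, Pramef6, Pramel3, Gm13083, Gm13078, Prame, B020004J07Rik, BC080695, Lrrc38 and other genes of the lists, and the rows below the filter.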

Other observations

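In the authors' deposited table, the log2 fold changes were -2.10 for Pramel6, -1.52 for Pramel7, 1.21 for Pramef25 and -0.53 for Pramel3. The DESeq2 fit made here gave -2.64 for Pramel6, -1.72 for Pramel7 and 3.07 for Pramef25, and edgeR gave -4.40 for Pramel3. Why the deposited values lie nearer to no change was not tested, so the sizes are not compared. The adjusted p-values in the authors' deposited table were 2.89e-17 for Pramel6, 5.81e-14 for Pramel7 and 0.000412 for Pramef25. The authors' deposited table lists no adjusted p for Pramel3, Pramef6, Pramel4, Pramel5, Pramef20 and Pramef12os.

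Between the Prame-like genes of chromosome 4 lies BC080695 (143551700 to 143573798), a row that was singled out after its values were seen. RefSeq places Pramel20 at 143567467 to 143573798, inside this interval, but the tables used here do not pair the names, so BC080695 may be a family member and was counted neither among the members nor among the other names. It had 7 and 8 counts in control cells, 65 in KO-labelled library 1 and 32 in KO-labelled library 2. Its log2 fold change was 2.98 (SE 0.45, adjusted p by edgeR = 0.0144). BC080695 reached the filter's bound only in the KO libraries, so it could pass only by differing. Lrrc38, just outside the cluster, had 44 and 52 counts in control cells, and 5 and 14 in the KO libraries, with a log2 fold change of -1.99 (SE 0.46, adjusted p by edgeR = 0.0386). The other 3 tested genes within 500 kb, Dhrs3, Pdpn and Prdm2, did not pass the test.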
